A study of Homo sapiens with 2 samples.

Results

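The aminoacyl-tRNA synthetase genes were examined in RNA recovered with an antibody against ZMAT2 from HUH7, a cell line of human hepatocellular carcinoma. The set was taken by name, in the older symbols of the deposited table, and comprised 38 genes: the catalytic subunits of cytosolic and mitochondrial synthetases and the scaffold genes AIMP1 and AIMP2. A minimum of 20 reads in both libraries together was required, and all 38 of 38 passed it, among 17915 genes that passed it of 56303 in the table. They were divided by role into 10 genes of the cytosolic multi-synthetase complex, 12 other cytosolic synthetase genes and 16 mitochondrial ones.

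The data comprised 1 library of ZMAT2-precipitated RNA (IP) and 1 library of unfractionated lysate RNA (Input). Per the labels' protocols, 80% of the lysate was used for the precipitation and 10% was kept as Input. No treatment or genetic change was named for either library, and the rabbit IgG control was not analysed here, so a higher level in the IP is not evidence of binding on its own. ZMAT2 is a zinc-finger protein of the spliceosome, and the study asked whether it acts on hepatocellular carcinoma through splicing. With 1 library per group, each difference is between these libraries without a replicate check, and no p-value is given. Counts per gene hold no splicing information.

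Aminoacyl-tRNA synthetases attach each amino acid to its tRNAs and so supply the ribosome with charged tRNAs. In animal cells several cytosolic synthetases are held in a multi-synthetase complex on small scaffold proteins, while the others act outside it. Mitochondria use a separate set that is encoded in the nucleus, translated in the cytosol and imported, except that GARS and KARS each give rise to both a cytosolic and a mitochondrial enzyme. When amino acids run short, the kinase GCN2 (EIF2AK4) leads to translation of the transcription factor ATF4, whose known targets include many cytosolic synthetase genes.

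The sequences through which ATF4 acts, C/EBP-ATF response elements, are shown because they are a feature of the members that does not rest on the counts. The search was added after the counts had been seen. The letters TGATGNAAN were searched on both strands of the RefSeq promoter windows of GRCh38.p14, each reaching from 250 bases before a gene's start to 50 after it. A window was found for 32 of the 38 genes, and AARS2, DARS, LARS, VARS, VARS2 and YARS were not matched. The letters occurred in 7 of 18 cytosolic genes with a window, complex members included, and in 1 of 14 mitochondrial genes. Over all 35116 windows 3.61% held them, and 4.45% of the 27305 genes did in at least 1 window. Each stretch is written 5′ to 3′ on the strand that carries the letters, which are in capitals, with 10 bases on either side.
AARS: ctaacttggcTGATGCAACtgcgagaaaa
CARS: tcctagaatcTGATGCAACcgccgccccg
IARS: cgcacggaggTGATGCAACgcgctgaaaa
MARS: aatccctcgcTGATGCAACcggaaccggc
NARS: ctacgctctcTGATGCAACgccggaatcg
TARS: ctggaccagcTGATGCAATcgaaaggcgc
GARS: gctcggagcaTGATGAAATcgccgcgtaa
YARS2: tccacactgcTGATGGAAAaattaagttt

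The same letters TGATGCAAC stood in AARS, CARS, IARS, MARS and NARS, and the mitochondrial gene YARS2 differed from them in the variable bases. The stretches lie at chr16:70289676-70289704 (plus strand) for AARS, chr11:3057408-3057436 (plus) for CARS, chr9:92293693-92293721 (plus) for IARS, chr12:57488053-57488081 (minus) for MARS and chr18:57621804-57621832 (minus) for NARS. Those of TARS, GARS and YARS2 lie on the minus strand at chr5:33440956-33440984, chr7:30594834-30594862 and chr12:32756076-32756104. The letters began between 5 bases before and 15 after the start in CARS, MARS, NARS and TARS, 14 bases before it in IARS, 34 before it in GARS, and 188 and 197 before it in AARS and YARS2. A match describes the letters in the window and does not show a bound site. The 8 genes with the letters had a median log2 ratio of IP over Input of 0.14 and ranged from -0.01 to 0.70, within the range of the 24 without them, whose median was 0.26 and range -0.72 to 1.13. Among cytosolic genes alone, complex members included, the order of the medians was the opposite, at 0.18 for the 7 with the letters and 0.09 for the 11 without.

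The libraries held 25047635 reads in genes in the IP and 23485789 in Input. Counts were scaled by TMM, which centres the ratios on the bulk of genes (median log2 ratio of all genes 0.0059), and a level below is the scaled CPM per kb of merged exons. Mates of a read pair appeared to be counted separately, so 95% counting intervals are given on pairs of reads. They cover counting error only. The precipitated protein's own mRNA, ZMAT2, had 36553 IP reads and 5187 Input reads, which gave a log2 ratio of 2.83. All 8 hepatocyte markers were kept, ALB with 170426 reads in Input, against 2 of 5 immune, 1 of 4 endothelial and 3 of 5 fibroblast and stellate markers. PTPRC had 0 IP reads and 1 Input reads, and CD3E, CDH5, KDR and COL1A1 had 0 in both, but the immune marker LYZ had 6011 and 8837 and the endothelial marker PECAM1 252 and 341.

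Calls required a ratio of at least 2-fold in either direction and a counting interval of the reads that excluded a log2 ratio of 0. By this rule 2 of the 38 synthetase genes (5.26%) were higher, EARS2 and AARS2, both mitochondrial, and 0 were lower. Over all genes kept, 7.41% were called higher and 6.97% lower, and over 11280 protein-coding genes of 100 or more reads 5.36% and 3.48%. The members' share of higher genes was therefore close to that of protein-coding genes with 100 or more reads. That minimum did not match the depth of the members, whose lowest count was 292 reads. Scaling by library totals shifted all ratios by a median of -0.11 on the log2 scale, and the calls over all genes went from 1328 higher and 1248 lower to 1023 and 1561. With 1.5-fold in place of 2-fold, 9 members (23.7%) were higher and 2 lower, against 17.8% and 16.0% of all genes and 17.8% and 14.3% of protein-coding genes with 100 or more reads. The 9 were EARS2, AARS2, PARS2, VARS2, HARS2, TARS2 and SARS2 of the mitochondrial class and AARS and VARS of the other cytosolic class, and the 2 were AIMP1 and WARS2. Scaled by library totals the 9 became 5 (EARS2, AARS2, PARS2, VARS2 and AARS), or 13.2% of the members against 14.2% of all genes, so that the members' share stood above that of all genes with TMM scaling and not with library totals.

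The 38 genes together had a median log2 ratio of 0.26, beside 0.0059 for all genes, and 27 of them (71.1%) had a ratio above the all-gene median. The classes differed in their position. The 10 genes of the multi-synthetase complex had a median of -0.09 with 3 above the median of all genes, the 12 other cytosolic genes a median of 0.30 with 11 above it, and the 16 mitochondrial genes a median of 0.45 with 13 above it. With TMM scaling, counting intervals lay wholly above 0 for 3 of 10, 8 of 12 and 12 of 16 genes, and wholly below 0 for 5, 1 and 2. Over all genes kept 27.8% lay wholly above 0 and 26.2% wholly below, and over protein-coding genes of 100 or more reads 34.8% and 32.8%. The counts were not redone with library totals, which shifted ratios by a median of -0.11. Smaller than that shift were the lower bounds of FARS2 (0.01), LARS2 (0.02), NARS2 (0.07), NARS (0.08), SARS (0.09) and IARS2 (0.09). So were the upper bounds of IARS (0.05), LARS (0.09) and GARS (0.09). These are descriptions of 2 libraries, and the differences between classes were not tested. The order of the last 2 classes rested on genes that share exon bases with a neighbour: over the genes sharing less than 5%, the medians were 0.05 for 6 complex genes, 0.35 for 10 other cytosolic genes and 0.26 for 11 mitochondrial genes. TMM factors were recomputed over the genes kept by that filter, which raised the ratios of genes without shared bases as well. QARS, for example, went from 0.55 to 0.60. The change in a class median is therefore partly one of scaling.

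**Figure D1:**
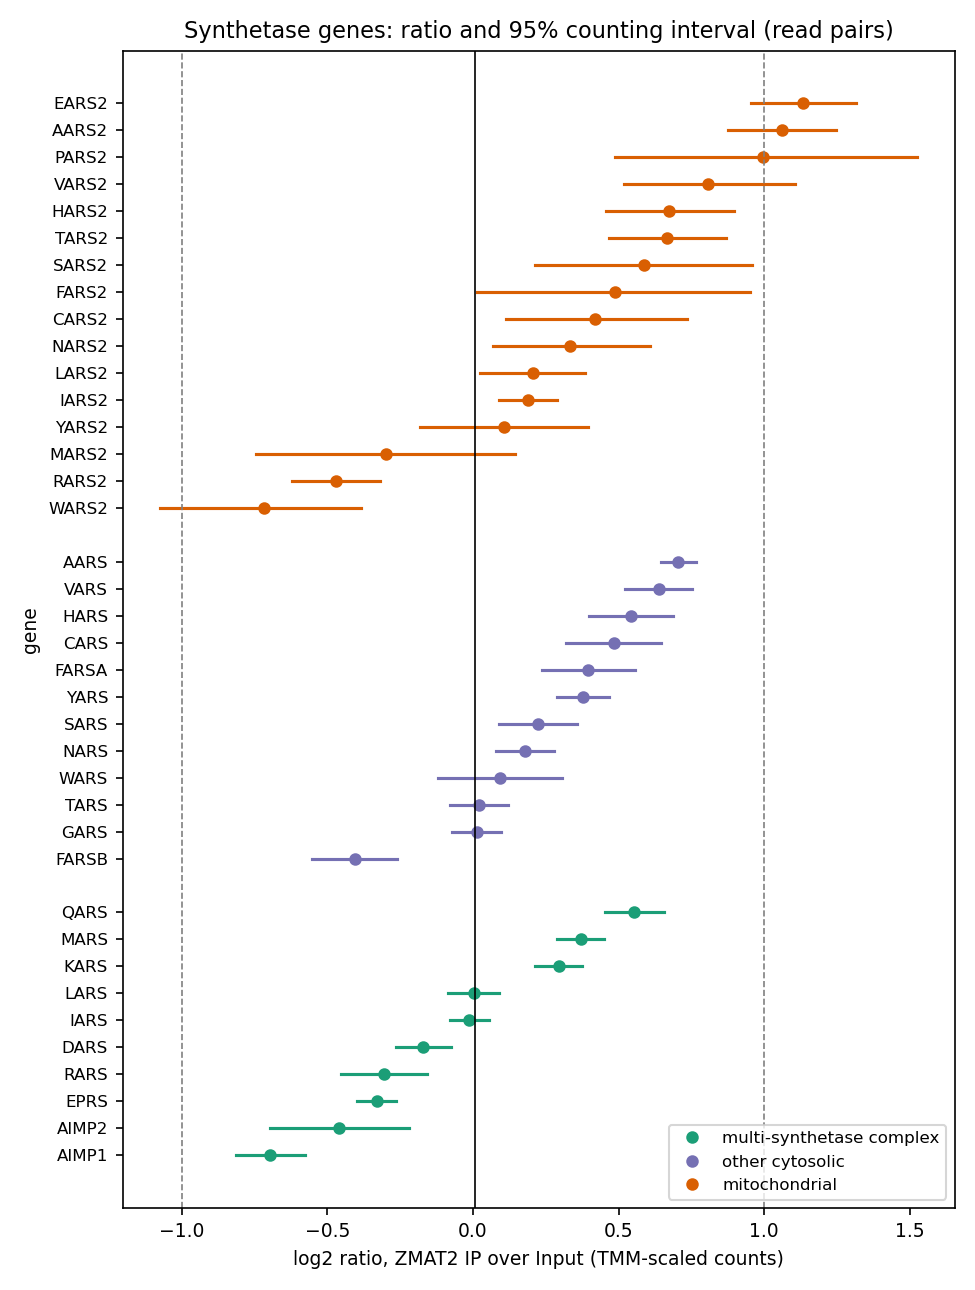
The log2 ratio of ZMAT2 IP over Input (x axis) is plotted for each of the 38 synthetase genes, with 95% counting intervals on read pairs as bars, the median of all genes as a solid line and 2-fold as dashed lines. Of the mitochondrial genes, 13 of 16 lie right of the solid line, while 3 of 10 genes of the multi-synthetase complex do.

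The mitochondrial synthetases held both called genes. EARS2, which charges mitochondrial tRNAs with glutamate, lies at 23522014 to 23557731 on chromosome 16 (GRCh38, minus strand) and had 1601 IP reads and 736 Input reads. Its level was 11.6 CPM per kb in the IP and 5.27 in Input, so that the log2 ratio was 1.13 (0.95 to 1.31) or 2.19-fold. AARS2, the mitochondrial alanyl-tRNA synthetase, lies at 44299654 to 44313326 on chromosome 6 (minus strand) and had 1465 and 708 reads. Its level was 14.1 and 6.76 CPM per kb, a log2 ratio of 1.06 (0.88 to 1.25) or 2.09-fold. Both intervals reached below 2-fold, and scaled by library totals EARS2 passed the threshold and AARS2 did not. Of 12951 protein-coding genes kept, 4.81% had a higher ratio than EARS2 and 5.78% a higher one than AARS2.

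Both genes share exon bases with a neighbour on the opposite strand. EARS2 shares 370 bases (6.46% of its exon bases) with UBFD1, which had 1230 IP reads and 1158 Input reads. If the reads of UBFD1 lay evenly over its exons, 52.8 and 49.7 of them would fall on the shared bases. AARS2 shares 235 bases (5.47%) with TMEM151B, which had 44 reads in each library. These numbers are small beside the reads of EARS2 and AARS2.

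PARS2, the mitochondrial prolyl-tRNA synthetase, had 194 IP reads and 98 Input reads and stood just under the threshold with a log2 ratio of 0.99 (0.49 to 1.52). VARS2, which charges mitochondrial valine tRNA, had 533 and 307 reads, for a ratio of 0.81 (0.52 to 1.11). It shares 21.99% of its exon bases with GTF2H4 on the same strand. TARS2, for threonine, which shares no exon base with another gene, had 1071 and 680 reads, for a ratio of 0.67 (0.47 to 0.87). These genes were higher in the IP by less than 2-fold, with intervals above 0.

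HARS2 is the neighbour of the ZMAT2 gene itself. It encodes the mitochondrial histidyl-tRNA synthetase, lies at 140691426 to 140699291 on chromosome 5 (plus strand) and had 887 IP reads and 561 Input reads, which gave a log2 ratio of 0.67 (0.46 to 0.90). Its 3′ end shares 152 exon bases with the start of ZMAT2 on the same strand. Spread evenly over its exons, the reads of ZMAT2 would put 3066 reads of the IP and 435.1 of Input on these bases, which is more than HARS2 held in the IP in all. The reads of ZMAT2 were therefore not spread or not counted in that way, and how many of the HARS2 reads belong to ZMAT2 was not measured. The ratio of HARS2 is uncertain for this reason.

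On its other side HARS2 faces HARS, the cytosolic histidyl-tRNA synthetase gene. HARS had 1928 IP reads and 1336 Input reads, which gave a log2 ratio of 0.54 (0.40 to 0.69). Of its exon bases 18.3% are shared, 592 of them with HARS2. The genes run in opposite directions from a common promoter, and the 84 bases between their RefSeq starts (chr5:140691371-140691454, plus strand, GRCh38.p14) are shown because both genes are read outward from them.
HARS and HARS2: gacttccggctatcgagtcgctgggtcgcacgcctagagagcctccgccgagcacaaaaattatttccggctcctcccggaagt

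In the deposited table all 84 bases lie in exons of HARS and 29 of them also in exons of HARS2. Levels of the pair were also alike, at 9.46 CPM per kb in the IP and 6.5 in Input for HARS against 10.8 and 6.76 for HARS2. These levels rest on 8436 merged exon bases for HARS and 3408 for HARS2. The difference in ratio, HARS2 minus HARS, was 0.13 (-0.13 to 0.40). Reads on the 592 shared bases appear to be counted for both genes, while the interval treats the reads of each gene as separate. How far this made the levels and ratios alike was not tested.

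At the lower end of the mitochondrial class stood the synthetases for tryptophan, arginine and methionine. WARS2, at 119031216 to 119140671 on chromosome 1 (minus strand), had 231 IP reads and 384 Input reads, which gave a log2 ratio of -0.72 (-1.07 to -0.39), the lowest of all 38. RARS2 had 1246 and 1740 reads, for a ratio of -0.47 (-0.62 to -0.32). MARS2, whose exons form 1 block without introns, had 158 and 196 reads, for a ratio of -0.30 with an interval of -0.74 to 0.14 that included 0. In the middle, IARS2 for isoleucine had the most reads of the class, 3537 and 3130, at a ratio of 0.19 (0.09 to 0.29), and RARS2 had the next most.

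Of the remaining mitochondrial genes, SARS2 for serine, with 307 and 206 reads, stood at 0.59 (0.21 to 0.96), but 57.0% of its exon bases are shared with other genes. FARS2 (0.49), CARS2 (0.42), NARS2 (0.33) and LARS2 (0.21), which charge phenylalanine, cysteine, asparagine and leucine tRNAs, had intervals above 0 with TMM scaling. YARS2, for tyrosine, had a ratio of 0.11 and an interval that included 0 (-0.18 to 0.40).

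Among the cytosolic synthetases outside the complex, the alanyl enzyme stood highest. AARS, at 70252295 to 70289543 on chromosome 16 (minus strand), had 11678 IP reads and 7230 Input reads, the most of all members. Its level was 107.5 CPM per kb in the IP and 66.0 in Input, so that the log2 ratio was 0.70 (0.64 to 0.77) or 1.63-fold. VARS, for valine, followed with 3213 and 2084 reads and a ratio of 0.64 (0.52 to 0.75). Neither shares exon bases with another gene.

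CARS (0.48), YARS (0.38), SARS (0.22) and NARS (0.18), for cysteine, tyrosine, serine and asparagine, had intervals above 0 with TMM scaling. GARS, for glycine, had the second most reads of this class, with 4767 from the IP and 4768 from Input, for a ratio of 0.01 (-0.07 to 0.09). TARS, with 3243 and 3226 reads, had a ratio of 0.02 (-0.08 to 0.12), and WARS, for tryptophan, with 754 and 714 reads, one of 0.09 (-0.12 to 0.30). With TMM scaling, the IP level of GARS, TARS and WARS thus lay within counting error of the Input level. Scaled by library totals, these 3 ratios were -0.09, -0.09 and -0.01.

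Phenylalanyl-tRNA synthetase is built from equal numbers of alpha subunits, encoded by FARSA, and beta subunits, encoded by FARSB. FARSA, at 12922479 to 12934037 on chromosome 19, had 1484 IP reads and 1138 Input reads, which gave a log2 ratio of 0.40 (0.24 to 0.56). FARSB, at 222570536 to 222656337 on chromosome 2, had 1343 and 1795 reads, for a ratio of -0.41 (-0.55 to -0.26). The mRNAs of the subunits of this enzyme therefore stood on opposite sides of the bulk of genes, with a difference of 0.80 (0.58 to 1.02). In Input their levels were 19.2 and 21.9 CPM per kb, and in the IP 25.2 and 16.5. FARSB was the only cytosolic gene outside the complex with a ratio below 0 with TMM scaling.

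In the multi-synthetase complex the scaffold genes AIMP1 and AIMP2 were lowest. AIMP1, the precursor of the cytokine EMAP II and a scaffold that binds the arginyl enzyme, lies at 106315544 to 106349226 on chromosome 4 and had 1910 IP reads and 3121 Input reads. Its level was 23.8 CPM per kb in the IP and 38.5 in Input, so that the log2 ratio was -0.70 (-0.81 to -0.58), or 1.62-fold lower in the IP. AIMP2, the scaffold around which the complex is assembled, had 502 and 697 reads, for a ratio of -0.46 (-0.70 to -0.22). EEF1E1, which encodes the third scaffold and was taken with the related genes, had 356 and 430 reads, for a ratio of -0.26 (-0.55 to 0.03). It shares 18.7% of its exon bases with other genes.

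AIMP2 shares 532 bases (28.9%) of its exons with EIF2AK1 on the opposite strand, which had 6309 IP reads and 9211 Input reads and a ratio of -0.53. Spread evenly, 604.8 and 882.9 reads of EIF2AK1 would fall on these bases, more than AIMP2 held in either library. How many of the AIMP2 reads are those of EIF2AK1 was not measured. AIMP1 shares 11.6% with TBCK, which had 195 and 382 reads.

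The 8 enzymes of the complex were spread on both sides of the bulk, with a median of -0.0056. QARS, for glutamine, was highest with 3880 IP reads and 2668 Input reads and a log2 ratio of 0.55 (0.45 to 0.65). MARS (0.37) and KARS (0.29), for methionine and lysine, had intervals above 0. MARS shares 12.4% of its exon bases, 355 of them with the stress gene DDIT3, whose ratio was 0.54.

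EPRS, the fused glutamyl-prolyl enzyme, was the lowest of the enzymes and had the most reads of the complex, 6585 in the IP and 8356 in Input. Its level was 50.04 CPM per kb in the IP and 62.9 in Input, so that the log2 ratio was -0.33 (-0.40 to -0.26). RARS (-0.31) and DARS (-0.17), for arginine and aspartate, had intervals below 0. IARS, for isoleucine, with 7186 and 7315 reads, and LARS, for leucine, with 4123 and 4154, had ratios of -0.01 and 0.0018. With TMM scaling the intervals of IARS and LARS included 0. Enzymes that share this complex thus ranged from -0.33 to 0.55.

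**Figure D2:**
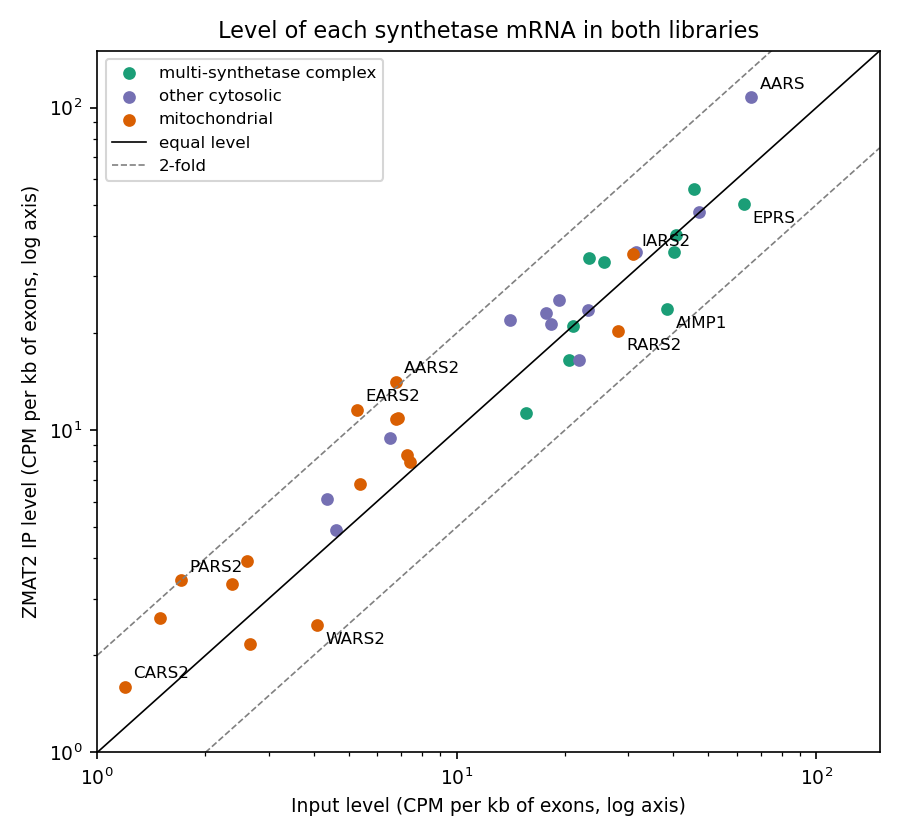
The level of each synthetase mRNA in Input (x axis) and in the ZMAT2 IP (y axis) is plotted in CPM per kb of exons on log axes, with a solid line at equal levels and dashed lines at 2-fold. The mitochondrial genes lie mostly at lower levels (median 5.32 in Input against 32.1 for complex genes and 18.7 for other cytosolic genes), and EARS2 and AARS2 lie above the upper dashed line.

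The cytosolic and mitochondrial enzymes for each amino acid were then set side by side, in 17 comparisons over 16 amino acids. EPRS serves both glutamate and proline, so that EPRS and FARS2 each enter 2 comparisons. In Input the cytosolic mRNA had the higher level per kb in 15 of 17 comparisons, with a median of 5.84-fold, and in the IP also in 15, with a median of 4.32-fold. The exceptions were HARS and RARS, whose levels were below those of HARS2 and RARS2 in both libraries. HARS had more reads than HARS2 in both libraries, but over 8436 merged exon bases against 3408. The mitochondrial gene had the higher ratio of IP over Input in 12 comparisons and the lower in 5. The interval of the difference lay above 0 in 7 comparisons, below 0 in 2 and included 0 in 8.

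The widest differences, mitochondrial minus cytosolic, involved EPRS: 1.46 (1.27 to 1.66) for EARS2 and 1.33 (0.81 to 1.86) for PARS2. The difference was 0.89 (0.40 to 1.38) for FARS2 against FARSB but 0.09 (-0.41 to 0.58) for FARS2 against FARSA. It was 0.65 (0.42 to 0.87) for threonine and 0.36 (0.16 to 0.55) for alanine. In the other direction stood tryptophan, at -0.81 (-1.23 to -0.41), and methionine, at -0.67 (-1.12 to -0.22). For cysteine, histidine, asparagine, arginine, serine, valine and tyrosine the interval included 0. These differences do not depend on the scaling.

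**Figure D3:**
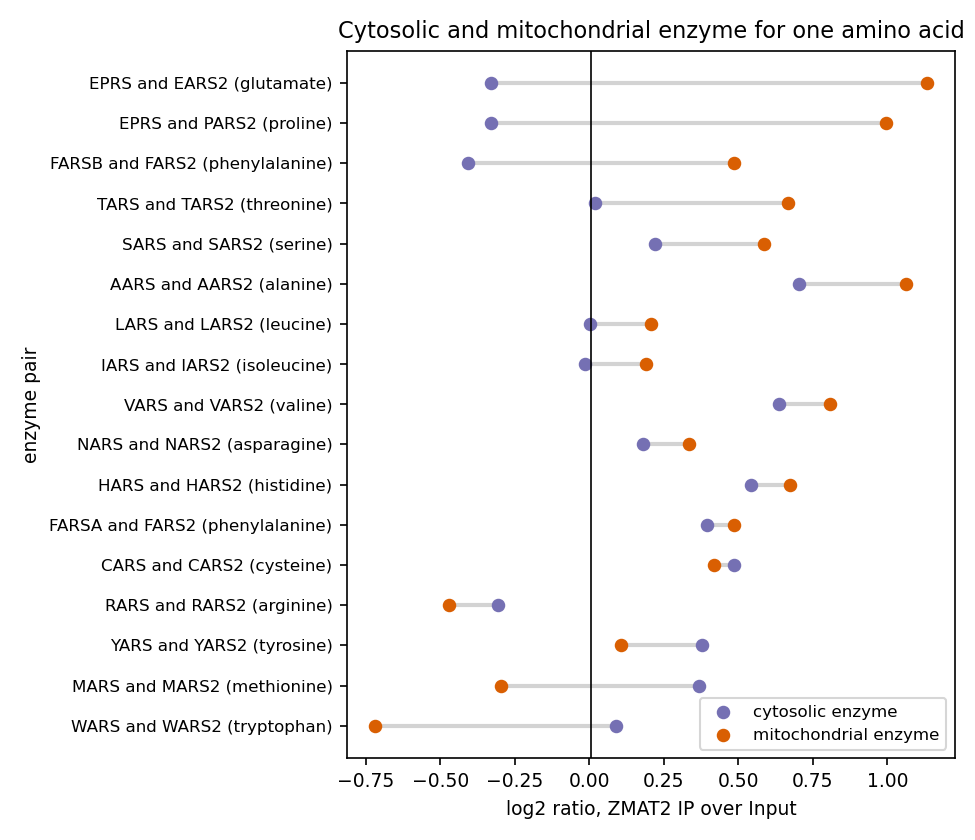
For each of the 17 comparisons the log2 ratio of IP over Input (x axis) of the cytosolic enzyme and of the mitochondrial enzyme for the same amino acid is plotted, joined by a grey line, with the median of all genes as a vertical line. The mitochondrial gene lies to the right in 12 comparisons, farthest for EARS2 and PARS2 against EPRS, and to the left in 5, farthest for WARS2.

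Synthetases fall into class I and class II by the fold of their catalytic domain. The 19 class I genes had a median log2 ratio of 0.19 with 12 above the median of all genes, and the 17 class II genes one of 0.40 with 15 above it. Each class held 1 of the called genes, EARS2 and AARS2. EPRS, which also has a class II part, was counted with class I.

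The ratio was also set against gene structure. Over the 38 genes, the ratio had a rank correlation of -0.43 with gene span (Pearson -0.28 with log2 span), 0.26 with exon length, 0.05 with the number of exon blocks and -0.20 with the number of reads. Over all 11280 protein-coding genes of 100 or more reads, that with span was -0.22. All points share the same 2 libraries, and these correlations are descriptions. The part of span in the ratios of the members was not tested. Those protein-coding genes were divided into 4 bins of equal number by span. From the shortest to the longest bin, the members' medians were 0.61, 0.22, 0.19 and 0.10 against 0.23, 0.05, -0.11 and -0.15 for the protein-coding genes. Above the median of their own bin lay 5 of 6, 9 of 13, 10 of 13 and 4 of 6 members.

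**Figure D4:**
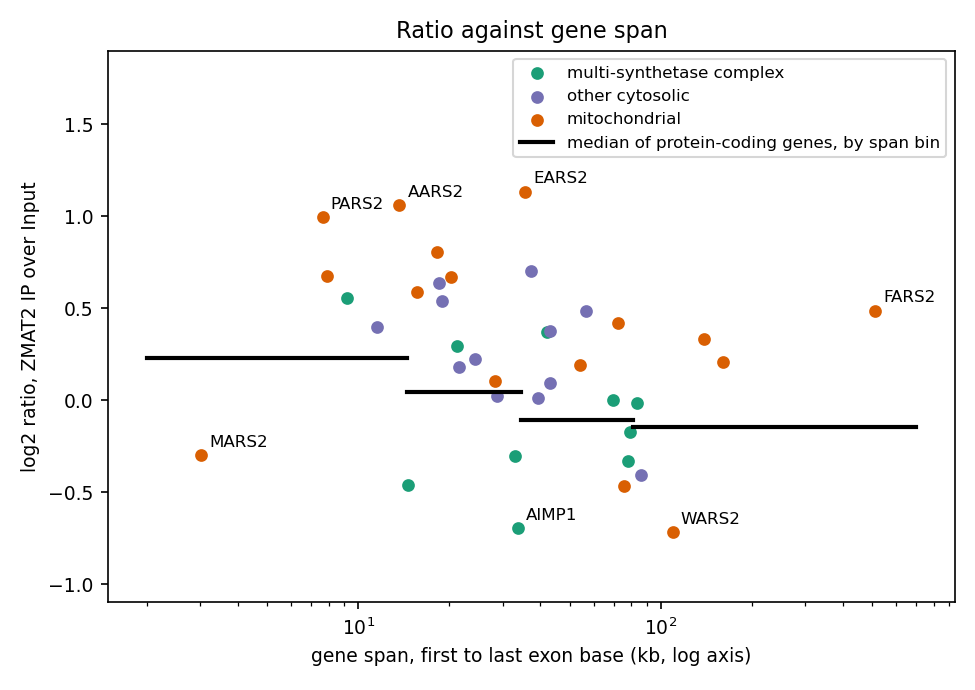
The log2 ratio of IP over Input (y axis) is plotted against gene span in kb (log axis) for the 38 synthetase genes, with black bars at the median of protein-coding genes in each of 4 span bins, drawn as far as the axis reaches. Members above their bar number 28 of 38, MARS2 is the shortest gene and FARS2 the longest.

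Related genes of tRNA charging and delivery, 20 in number and all kept, had a median log2 ratio of 0.05 and none called at 2-fold. At 1.5-fold AARSD1 (0.69), which edits mischarged alanine tRNA, and GATB (0.73) were higher, and DTD2 (-0.75) and XPOT (-0.62) were lower. The shares of all genes kept were 7.41% higher and 6.97% lower at 2-fold and 17.8% and 16.0% at 1.5-fold. AARSD1, DTD2 and GATB share 34.2%, 16.3% and 12.0% of their exon bases with other genes. GATB, GATC and QRSL1 encode the subunits of the amidotransferase that turns glutamate into glutamine on the mitochondrial tRNA that EARS2 has charged. GATB had 907 IP reads and 552 Input reads and QRSL1 986 and 1263, a difference in log2 ratio of 1.07 (0.79 to 1.35). GATC, with 2003 and 1809 reads, lay between them at 0.16 (0.03 to 0.29) and shares 47.6% of its exon bases with other genes. XPOT, the export receptor of tRNA, had 6073 and 9393 reads. The elongation factor EEF1A1, which carries charged tRNA to the ribosome, had 70710 and 67287 reads at a ratio of 0.08 (0.06 to 0.11), and EEF1B2 24957 and 37443 at -0.57 (-0.60 to -0.54).

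The 25 genes of the amino acid response had a median of 0.21, with 1 called higher and 3 lower. By the same rule 7.41% of all genes kept were higher and 6.97% lower. TRIB3, a pseudokinase induced by ATF4, had 978 IP reads and 469 Input reads and a ratio of 1.07 (0.85 to 1.31). The amino acid transporter genes SLC38A2, with 2603 and 6490 reads, and SLC7A11, with 722 and 1680, were lower at -1.31 (-1.40 to -1.21) and -1.21 (-1.39 to -1.03). CHAC1, with 12 and 27 reads, was also called lower, but its interval on pairs of reads included 0. ATF4, with 9948 and 10027 reads, had a ratio of 0.0012 (-0.06 to 0.06), while ASNS, asparagine synthetase, stood at 0.69 (0.52 to 0.87) and PHGDH, of serine synthesis, with 6732 and 4260 reads, at 0.67 (0.59 to 0.75). In this list the letters TGATGNAAN occurred in 4 of 19 genes with a window, and in the list of tRNA charging and delivery in 0 of 15.

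**Figure D5:**
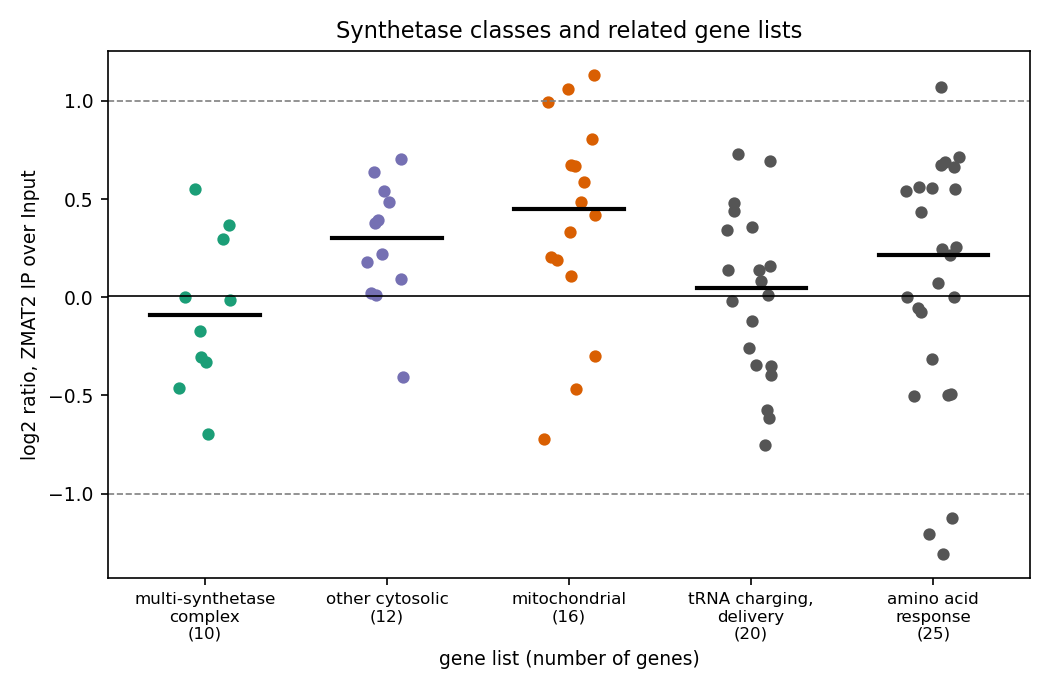
Each point is the log2 ratio of IP over Input (y axis) of 1 gene in the 3 synthetase classes and 2 related gene lists (x axis), with thick bars at list medians, a thin line at the median of all genes and dashed lines at 2-fold. The medians are -0.09, 0.30, 0.45, 0.05 and 0.21 from left to right, and points spread sideways only to keep them apart.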

How the data were processed

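RNA of HUH7 cells was sequenced as 1 ZMAT2 IP and 1 Input library, grouped by their titles. The deposited table holds raw read counts per gene, not normalized, beside each gene's exons and their merged length, as the authors' column headers show. Per the submitters' processing notes, the tools included STAR 2.5.3a, fastp 0.23.4 and edgeR 3.12.1 with build GRCh38. The counting tool and its strand setting were not given in the sources used here. Among counts of 1 to 6, 77.9% in the IP and 67.1% in Input were even, and in all 454 pairs of a gene lying wholly within exons of another the enclosing gene had at least as many reads, so mates appear to be counted singly and shared bases for each gene.

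Counts were scaled with TMM factors (edgeR 4.0.16, R 4.3.3) over genes with at least 20 reads, with a prior count of 0.5 in log2 ratios. With 1 library per group no quasi-likelihood test could be fitted. Intervals are exact 95% (Clopper-Pearson) intervals of the IP share, or conditional intervals of the odds ratio for differences (scipy 1.17.1). For calls they used reads as counted. Printed intervals took 2 reads as 1. The code was tested on simulated data. Names and biotypes came from RefSeq GRCh38.p14, and 1806 older symbols were updated.

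The members and lists were chosen with earlier results of these data known. The naming rule took every member and, from each related list, called genes and the 2 with most reads. EEF1E1, AARSD1, GATB, GATC, QRSL1, DTD2, XPOT and ASNS were named after their values were seen. Alternatives covered scaling, minimum reads, prior count, interval, fold and shared exon bases.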

Additional observations from a re-analysis of the deposited data

How the results depend on the processing

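The number of synthetase genes called higher at 2-fold, 2 (EARS2 and AARS2), became 1 with library totals (EARS2), 1 over genes sharing less than 5% of exon bases (PARS2, since EARS2 and AARS2 were left out by that filter) and 9 at 1.5-fold, where the number called lower went from 0 to 2. It was 2 with DESeq2 size factors, TMM without the mitochondrial genome, a prior count of 2, minimums of 100 or 1000 reads and intervals on pairs. Without a minimum it was 3, PARS2 being the added gene. The 9 higher genes at 1.5-fold (23.7% of members against 17.8% of all genes) became 5 with library totals (13.2% against 14.2%). Among the 27 members sharing less than 5%, 5 were higher (18.5% against 18.7%) and 1 was lower. QARS, not among the 9, was higher there. It shares no exon base, and its ratio went from 0.55 to 0.60 because TMM factors were recomputed over the genes kept. These 1.5-fold settings were chosen after seeing the data. On pairs of reads the numbers were again 9 and 2.

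Over all genes, the 1328 higher and 1248 lower calls became 2004 and 2014 without a minimum, 761 and 582 at 100 reads, 329 and 191 at 1000 reads, and 3196 and 2868 at 1.5-fold, and the lower calls became 767 over genes sharing less than 5% of exon bases. Fewer or more genes were tested under the minimums and the overlap filter.

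Class medians ranged from -0.20 to 0.05 for the complex, 0.19 to 0.35 for other cytosolic genes and 0.26 to 0.67 for mitochondrial genes, the highest at 1000 reads with 7 genes. The values 0.05, 0.35 and 0.26 came from the filter on shared exon bases, with TMM factors recomputed over the genes kept. Of 284 values of single genes under alternatives, 22 moved beyond the counting interval and 9 changed sign, all 9 in IARS, LARS, GARS, TARS or WARS. The 22 came from library totals and the filter on shared exon bases, most of them from library totals. Those under the filter were EPRS, IARS and AARS, which share no exon base and moved with the recomputed scaling. Of 119 differences between paired enzymes 0 moved beyond their interval. No paired analysis was possible because each group held 1 library, and no replicate could be left out. Depth limited PARS2, FARS2 and MARS2 most, with 292 to 354 reads each.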
